A study of Homo sapiens with 6 samples.

Results

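The 36 genes described here encode 20 integrin chains, 10 laminin chains and the 6 chains of collagen IV. TLE3 was mapped at them by chromatin immunoprecipitation followed by sequencing (ChIP-seq) in the MDA-MB-453 line of breast cancer cells, a human line. The genes were taken by name from RefSeq, where all 36 were found among 20037 protein-coding genes, and a peak or region was given to a gene when it shared a base with the gene's span or when that gene was the nearest protein-coding gene within 100 kb. By this rule 203 of the 72272 merged TLE3 regions of the study belonged to the 36 genes, and each of the 36 had at least 1 region.

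The study asked whether TLE3 binding needs FOXA1. In siFOXA1 cells FOXA1 was silenced transiently (2 ChIP libraries), and siNS cells were their control (2 ChIP libraries), and the labels call the 2 libraries of each group biological replicates. All 4 come from MDA-MB-453 cells and were made with the same TLE3 antibody, and the list of siFOXA1 2 carries the number 3 in its name while the title, used here, carries 2. The 2 input libraries, whose labels name the line MDA-MB-454, were not analysed here. Peak lists hold no RNA values, so neither the depth of silencing nor the identity of the cells could be checked from them.

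Integrins are receptors made of an alpha and a beta chain that hold epithelial cells to the extracellular matrix. Laminins, each built of an alpha, a beta and a gamma chain, and collagen IV, which forms a network of triple helices, are main components of the basement membrane to which many integrins bind. TLE3 belongs to the Groucho family of corepressors, which have no DNA recognition of their own and reach chromatin through other factors, and FOXA1 is a forkhead factor that can open chromatin in luminal breast cells.

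The sequences that lie under the control binding come first. RefSeq start sites were at hand for 28 of the 36 genes, in 36 windows of 250 bases before a start (GRCh38.p14). A siNS consensus region, which is a merged region with a peak of both siNS libraries, covered part of 16 of these windows. The windows of the 6 genes with the strongest such region are printed 5′ to 3′ on the strand of the gene, because they show the kind of sequence at which TLE3 was found in siNS cells and at which siFOXA1 peaks were mostly missing. They are ITGB1 at chr10:32958231-32958480 on the minus strand, LAMA5 at chr20:62367313-62367562 on the minus strand, ITGA2 at chr5:52989102-52989351 on the plus strand, ITGB5 at chr3:124887685-124887934 on the minus strand, ITGA6 at chr2:172427086-172427335 on the plus strand and LAMB2 at chr3:49133051-49133300 on the minus strand. The ITGB5 window precedes a start that lies inside the longest span of the gene. The region on it ends at chr3:124887812, and the region on the ITGA6 window starts at chr2:172427153. The first bases printed for ITGB5 and ITGA6 therefore lie outside the region. Capitals mark matches, on either strand, to any of the 7 motifs searched.
ITGB1: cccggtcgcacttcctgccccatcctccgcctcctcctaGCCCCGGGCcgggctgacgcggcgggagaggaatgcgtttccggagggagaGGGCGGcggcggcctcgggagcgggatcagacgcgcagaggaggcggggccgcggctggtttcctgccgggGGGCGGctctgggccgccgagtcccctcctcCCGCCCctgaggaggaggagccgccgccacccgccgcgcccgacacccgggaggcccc
LAMA5: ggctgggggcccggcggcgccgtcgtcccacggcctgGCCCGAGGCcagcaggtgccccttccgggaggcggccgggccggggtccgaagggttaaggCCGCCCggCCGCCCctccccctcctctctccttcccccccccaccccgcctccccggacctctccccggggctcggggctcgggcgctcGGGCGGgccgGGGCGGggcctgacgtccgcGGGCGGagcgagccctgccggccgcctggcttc
ITGA2: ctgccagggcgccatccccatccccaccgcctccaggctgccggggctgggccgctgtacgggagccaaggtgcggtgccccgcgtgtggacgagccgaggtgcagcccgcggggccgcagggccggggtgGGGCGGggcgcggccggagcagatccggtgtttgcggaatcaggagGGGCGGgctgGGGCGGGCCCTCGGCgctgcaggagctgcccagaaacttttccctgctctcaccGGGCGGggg
ITGB5: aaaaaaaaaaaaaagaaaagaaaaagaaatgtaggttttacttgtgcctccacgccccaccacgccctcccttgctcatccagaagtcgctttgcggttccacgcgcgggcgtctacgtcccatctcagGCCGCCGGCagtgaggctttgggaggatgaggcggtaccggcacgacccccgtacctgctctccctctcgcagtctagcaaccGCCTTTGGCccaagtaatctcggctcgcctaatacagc
ITGA6: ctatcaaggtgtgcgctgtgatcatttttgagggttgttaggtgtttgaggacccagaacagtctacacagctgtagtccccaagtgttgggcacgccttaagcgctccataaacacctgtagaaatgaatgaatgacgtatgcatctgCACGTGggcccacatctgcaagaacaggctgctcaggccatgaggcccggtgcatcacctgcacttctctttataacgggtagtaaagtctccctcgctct
LAMB2: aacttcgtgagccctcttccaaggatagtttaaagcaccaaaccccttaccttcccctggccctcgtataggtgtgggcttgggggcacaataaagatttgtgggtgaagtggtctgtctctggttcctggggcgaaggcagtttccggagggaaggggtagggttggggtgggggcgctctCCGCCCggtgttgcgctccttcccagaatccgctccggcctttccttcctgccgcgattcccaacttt

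The motifs were forkhead (TGTTTAC or TATTTAC), TCF/LEF (CTTTGAT), RUNX (TGTGGTT), AP-1 (TGANTCA), AP-2 (GCCNNNGGC), E-box (CACGTG) and GC box (GGGCGG), each read on both strands, and GC box and AP-2 matches can overlap. In the printed windows the GC box stood 5 times before LAMA5, 4 times before ITGA2, 3 times before ITGB1 and 1 time before LAMB2. The AP-2 form stood 2 times before ITGB5 and 1 time each before ITGB1, LAMA5 and ITGA2, and the printed window of ITGA6 held 1 E-box. ITGA6 and ITGB5 each have a second window under the same siNS consensus region, not printed, with 3 GC boxes and 1 AP-2 form each and, at ITGA6, 1 RUNX match. No printed window held the forkhead letters, and among all 36 windows only that of LAMA4, which had no consensus region, held them (2.78%, against 4.26% of 22199 windows of all protein-coding genes). The GC box was in 55.6% of the 36 windows and 53.7% of all, and the AP-2 form in 27.8% and 23.4%. RUNX letters were in 1 window and AP-1 letters in 2 (3.13% and 5.36% of all windows), the E-box in 1 (7.37%) and the TCF/LEF letters in none (1.78%). Such matches describe letters and not binding sites.

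The windows with a siNS consensus region were richer in G and C than those without. Their median G and C content was 71.0% (16 windows), against 53.0% in the 20 windows without. Over all protein-coding genes the medians were 67.6% in 11142 windows with such a region and 54.0% in 11057 without. The observed number of CpG pairs over the number given by base composition had a median of 0.675 with a region and 0.508 without at these genes, and of 0.845 and 0.372 over all windows. The facing windows of COL4A1 and COL4A2 went the other way, with ratios of 1.01 and 1.04 and no region on either, and the window of LAMB1 had 0.924 and no region.

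**Figure D1:**
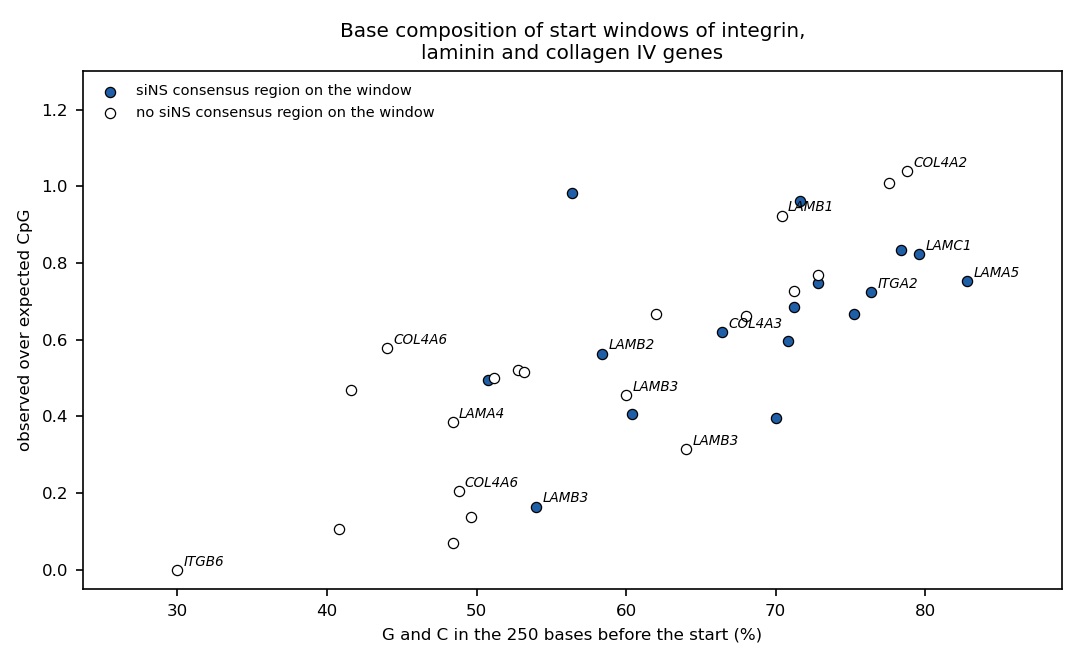
Base composition of the 36 windows of 250 bases before the given starts of integrin, laminin and collagen IV genes. The horizontal axis gives the percent of G and C, the vertical axis the observed over expected CpG ratio, and each point is 1 window, filled where a siNS consensus region covers part of it (16) and open where none does (20). Filled points lie mostly to the right, with a median of 71.0% G and C against 53.0% for open points. COL4A2 is an open point at the upper right, and only some windows are labelled.

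Fewer TLE3 peaks lay at these genes after FOXA1 silencing, as in the lists as a whole. The 4 lists held 12249 and 13754 peaks in siFOXA1 1 and 2, against 45105 and 46586 in siNS 1 and 2. At the 36 genes there were 38 and 42 peaks in siFOXA1 1 and 2, against 122 and 132 in siNS 1 and 2. Each siFOXA1 list was below each siNS list. The means were 40.0 ± 2.83 peaks in siFOXA1 and 127 ± 7.07 in siNS (SD, n = 2 each), a difference of -87.0 peaks. The smallest p that 2 libraries against 2 allow in a two-sided exact permutation test is 0.33, and that was the value here (0.33 after Benjamini-Hochberg adjustment over 4 measures), so no difference per library could pass a threshold of 0.05. When each list was limited to its 12249 strongest peaks the difference was 1.50 peaks with an exact permutation p of 1.00, and with peaks under the median score of their list left out it was -41.0. The lists give no reads, so depth is unknown, and a change in binding cannot be told apart from a change in how many peaks could be called.

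As a share of their list, peaks at the 36 genes made up 0.310% and 0.305% in siFOXA1 1 and 2, against 0.270% and 0.283% in siNS 1 and 2. The number of genes with any peak was 18 and 20 in siFOXA1 1 and 2, against 32 and 34 in siNS 1 and 2. Over all protein-coding genes the shares with any peak were 25.4% and 27.1% in siFOXA1 1 and 2, against 77.0% and 75.0% in siNS 1 and 2, so the same split was present genome-wide. Peaks within 1 kb of either end of a protein-coding gene were 10.5% and 9.52% of the peaks at these genes in siFOXA1, against 21.3% and 17.4% in siNS. Over all peaks the same shares were 4.56% and 4.22% in siFOXA1, against 31.7% and 28.6% in siNS. In all 3 measures the groups did not overlap, with an exact permutation p of 0.33 each.

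**Figure D2:**
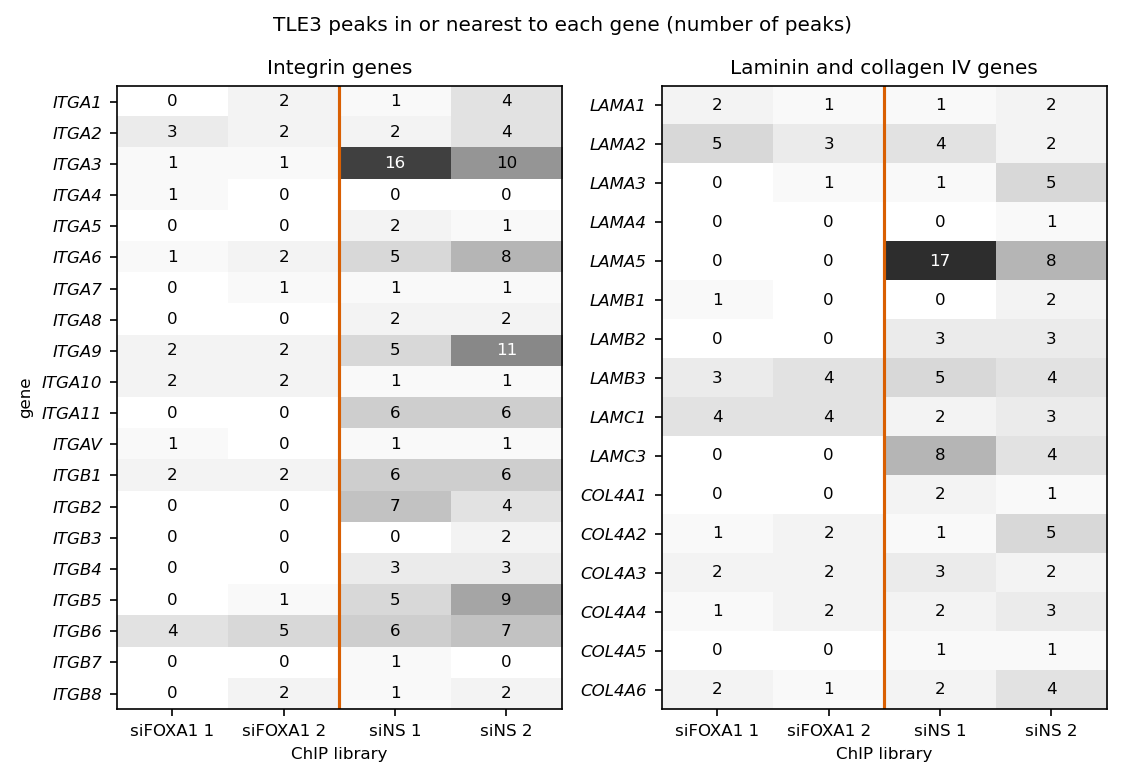
Number of TLE3 peaks in or nearest to each of the 36 genes, by library, with siFOXA1 1 and 2 left of the vertical line and siNS 1 and 2 right of it. Darker cells hold more peaks. LAMA5 has 17 and 8 peaks in siNS and none in siFOXA1, while LAMC1 has 4 and 4 in siFOXA1 and 2 and 3 in siNS. A siNS 1 peak shared by COL4A3 and COL4A4 is counted for both.

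A siNS consensus region was present at 28 of the 36 genes (77.8%), beside 66.6% of all protein-coding genes. A siFOXA1 consensus region, with a peak of both siFOXA1 libraries, was present at 14 (38.9%), beside 19.7% of all. Of the 36 genes, 13 had both kinds, 15 the siNS kind alone, COL4A6 the siFOXA1 kind alone, and 7 neither. The same split over all genes is not given here. The 7 were ITGA4, ITGA8, ITGB3, ITGB7, LAMA4, LAMB1 and COL4A5, and they had 1 to 4 regions each, all of a single library. A region with peaks in all 4 libraries was present at 11 genes (beside 9.34% of all genes), and a region with both siFOXA1 peaks and no siNS peak at 5 (beside 7.94%). With lists of equal length 17 genes had a siNS consensus region, beside 28.3% of all genes.

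These genes are long, and gene length moves with such counts. Their median span was 95.7 kb (range 11.9 to 633 kb), against 24.1 kb over all protein-coding genes. Among genes under 50 kb, 3 of 9 had a siFOXA1 consensus region (11.6% of 13768 genes of that length) and 8 of 9 a siNS one (61.1%). Between 50 and 150 kb the counts were 5 of 15 for siFOXA1 (28.5% of 4226) and 11 of 15 for siNS (78.1%), and above 150 kb they were 6 of 12 for siFOXA1 (56.7% of 2043) and 9 of 12 for siNS (80.6%). The part of gene length in the shares above was not tested, and the ranks of single genes given below are over genes of all lengths.

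The 203 regions fell into 8 classes by library. Regions with both siFOXA1 peaks numbered 24, of which 7 had no siNS peak, 3 had 1 and 14 had both. Another 7 regions held both siNS peaks and 1 siFOXA1 peak, 48 held both siNS peaks alone (23.6%, beside 28.7% of all regions), and 2 held a peak of 1 library of each group. Regions of a single library numbered 19 from a siFOXA1 library (9.36%, beside 8.33% of all) and 103 from a siNS library (50.7%, beside 47.1%). Regions in all 4 libraries were 6.90% of the 203 and 3.60% of all, and siFOXA1-only regions 3.45% and 4.54%. Of the 203 regions 149 shared a base with the span of 1 of the 36 genes and 54 lay outside. The most distant region inside the limit of 100 kb was 88019 bp from ITGB1 and held a peak of 1 siNS library, and the nearest beyond it, with both siFOXA1 peaks and 1 siNS peak, was 101996 bp from ITGA1.

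Of the 69 siNS consensus regions at these genes 21 held a siFOXA1 peak (30.4%, exact Clopper-Pearson 95% interval 19.9 to 42.7%), beside 17.0% of all 24967 siNS consensus regions. siFOXA1 1 had a peak in 17 of the 69 and siFOXA1 2 in 18, and 14 had both. Intervals cover counting error only, and regions of 1 gene are not independent. The share was 20.5% of 132 regions when siNS 1 was left out and every siNS 2 region counted, close to the 17.3% over all regions. It was 17.2% of 122 when siNS 2 was left out (9.55% over all), and 44.4% of 27 with lists of equal length (32.3% over all).

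The share was also read by place and by strength, with no test between them. Of the 69 regions 20 were at most 1 kb from a gene end (29.0%), beside 42.7% over all siNS consensus regions. Without siNS 1, when every siNS 2 region counted, the shares were 17.4% here and 28.7% over all. Among regions near a gene end 4 of 20 held a siFOXA1 peak (20%, interval 5.73 to 43.7%), beside 6.28% of all such regions, and elsewhere 17 of 49 did (34.7%), beside 24.9%. Inside genes and away from their ends it was 13 of 30 at these genes (43.3%) and 23.4% over all, and between genes 4 of 19 (21.1%) and 26.9%. Ends here are those of the longest span of a gene. The 30 therefore include siNS-only regions of ITGB5 and LAMA3 that lie at starts inside those spans. The intervals of the places overlap widely at these genes. Strength was the mean over the siNS libraries of the score percentile, which is the percent of a library's own peaks with a lower score. The score is the authors' own value for each peak and its definition is not stated. The siFOXA1 lists hold fewer peaks than the siNS lists, so percentiles of siFOXA1 and siNS are not on the same scale. Here and below they give a rank within a list and do not measure a change in binding. Above the median strength of all siNS consensus regions 18 of 40 held a siFOXA1 peak (45.0%), beside 26.6% over all, and below it 3 of 29 did (10.3%), beside 7.35%. Among the strongest 10% of all regions it was 5 of 8 (62.5%), beside 58.3%.

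**Figure D3:**
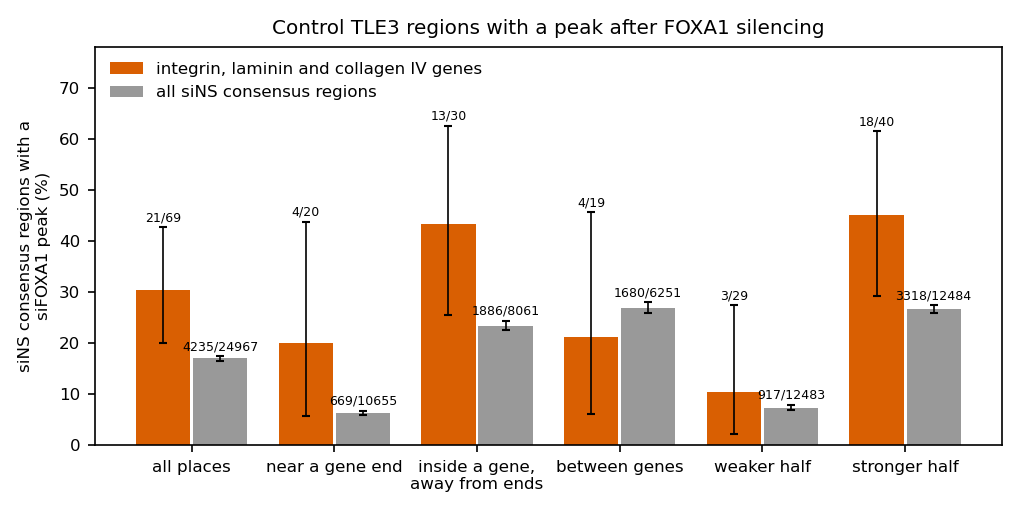
Percent of siNS consensus regions that held a peak of at least 1 siFOXA1 library, by place and by strength, for the integrin, laminin and collagen IV genes (coloured bars) and for all siNS consensus regions (grey bars). Whiskers are exact Clopper-Pearson 95% intervals and the numbers above give regions with a siFOXA1 peak over all regions of the bar. The coloured bars stand at 20% near gene ends, 43.3% inside genes away from ends and 21.1% between genes, with wide whiskers that overlap.

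By family, a siFOXA1 peak was present in 12 of 46 siNS consensus regions at integrin genes (26.1%, interval 14.3 to 41.1%), 5 of 17 at laminin genes (29.4%, 10.3 to 56.0%) and 4 of 6 at collagen IV genes (66.7%, 22.3 to 95.7%). These intervals overlap widely. Over all siNS consensus regions the share was 17.0%, which lies inside the integrin and laminin intervals and below that of collagen IV, which rests on 6 regions. Within the integrins it was 8 of 24 at alpha chain genes (33.3%) and 4 of 22 at beta chain genes (18.2%, close to the share over all).

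Among the alpha chains that bind laminin, the siNS regions of ITGA3 were the most numerous, with 8 siNS consensus regions, more than at 98.9% of protein-coding genes. ITGA3 had 1 and 1 peaks in siFOXA1 1 and 2, against 16 and 10 in siNS 1 and 2. Of its siNS-only regions 6 were spread over 2639 to 28230 bp outside the span, and the strongest covered 1 end of the gene at chr17:50054852-50057899, with score percentiles of 97.2 in siNS 1 and 91.7 in siNS 2. The only ITGA3 region with siFOXA1 peaks lay inside the gene at chr17:50062240-50062989 and was present in all 4 libraries, at percentiles of 79.3 and 75.8 in siFOXA1 1 and 2, against 90.7 and 77.3 in siNS 1 and 2. ITGA6, whose product pairs with that of ITGB4 in hemidesmosomes, had 4 siNS consensus regions, of which 2 held a siFOXA1 peak. Its start region at chr2:172427153-172428795, under the window printed above, was siNS-only (94.9 and 79.7). A region 27881 bp into the gene at chr2:172454767-172455667 was in all 4 libraries, at 70.9 and 89.3 in siFOXA1 1 and 2, against 63.3 and 98.8 in siNS 1 and 2. ITGA7, the laminin receptor chain of muscle, had 1 region, with both siNS peaks and the siFOXA1 2 peak, at an end that it shares with BLOC1S1.

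Among the collagen-binding alpha chains, ITGA10 had a single region, at chr1:145891055-145892800, and it was present in all 4 libraries. It lay at the end of the gene other than its start, 18122 bp downstream of it. Its percentiles were 80.0 and 84.1 in siFOXA1 1 and 2, against 98.3 and 99.2 in siNS 1 and 2. ITGA2, the main collagen receptor chain of epithelia, was the only gene whose printed window lay under a siNS consensus region with a siFOXA1 peak. That region, chr5:52988771-52990046, stood at 12.4 in siFOXA1 1 with no peak in siFOXA1 2, against 94.0 and 89.1 in siNS 1 and 2. A weak siFOXA1-only region lay 1311 bp before the gene at chr5:52987636-52988041, at 1.57 and 6.46 in siFOXA1 1 and 2. ITGA1 had 1 siNS-only region inside its span, which is also inside PELO, and ITGA11 had 1 siNS-only region 37797 bp outside and 10 regions of a single siNS library.

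ITGA9, whose chain binds tenascin and other ligands, held the strongest siNS consensus region of the whole set. It lay inside the gene at chr3:37782208-37783193 and was present in all 4 libraries. Its scores placed it at the 96.9 and 96.0 percentiles of the siFOXA1 lists, against the 99.8 and 99.9 percentiles of the siNS lists, so it was near the top of each list. The gene had 4 more siNS consensus regions, of which 1 held a siFOXA1 1 peak at the 7.48 percentile. The RGD-binding chains ITGA5, the fibronectin receptor, and ITGAV, the vitronectin receptor, had 1 siNS consensus region each, at the start, and neither held a siFOXA1 peak.

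Among the beta chains, ITGB6 had the most regions shared between the groups. It encodes the epithelial partner of ITGAV that activates latent TGF-beta. It had 4 and 5 peaks in siFOXA1 1 and 2, against 6 and 7 in siNS 1 and 2. The siNS consensus held 6 regions, of which 3 had a siFOXA1 peak, and the siFOXA1 consensus held 3 regions, more than at 97.2% of protein-coding genes. A group of 4 siNS consensus regions lay 21126 to 27041 bp before the gene. The strongest of the 4, chr2:160221398-160222352, stood at 99.5 and 98.5 in siNS 1 and 2, and no siFOXA1 peak overlapped it. Further out, chr2:160225655-160226359 was present in all 4 libraries, at 65.7 and 73.9 in siFOXA1 1 and 2, against 73.5 and 78.6 in siNS 1 and 2. Inside the gene, chr2:160166014-160166400 was siFOXA1-only, at 41.4 and 63.8, and chr2:160170534-160170929 had both siFOXA1 peaks and the siNS 2 peak.

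ITGB1, the beta chain shared by most matrix receptors, had 5 siNS consensus regions. Its start region at chr10:32957308-32958910 was siNS-only, at 95.4 and 88.1 in siNS 1 and 2. The other 4 lay 22219 to 83725 bp before the gene, and 1 of them, chr10:33005564-33006033, was in all 4 libraries, at 14.3 and 33.1 in siFOXA1 1 and 2, against 89.7 and 71.7 in siNS 1 and 2. ITGB5, a partner of ITGAV, had 4 siNS-only regions, and its strongest, chr3:124837639-124838127 inside the gene, stood at 92.6 and 97.6 in siNS 1 and 2. ITGB2, the beta chain of leukocyte integrins, also had 4 siNS-only regions, ITGB4, the hemidesmosome chain, had 2, and ITGB8 had 1 at its start. No siFOXA1 peak was listed at ITGB2 or ITGB4, and no siFOXA1 peak overlapped a siNS consensus region at these 4 genes.

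The laminin alpha chain genes stood apart from each other. LAMA5, the alpha chain of most adult epithelial basement membranes, had no peak in siFOXA1 1 or 2, against 17 and 8 peaks in siNS 1 and 2. Of its 19 regions 15 had a peak of a single siNS library. Its start region, chr20:62365602-62369355, spanned 3754 bp, the widest of the siNS consensus regions at the 36 genes, and stood at 93.7 and 89.4 in siNS 1 and 2. LAMA2, the alpha chain of muscle laminin, had 5 and 3 peaks in siFOXA1 1 and 2, against 4 and 2 in siNS 1 and 2. Its siFOXA1 consensus held 3 regions and its siNS consensus 1, with none in common. The siFOXA1-only regions were chr6:129215856-129216591, at 50.8 and 27.0, and chr6:128852908-128853192, at 25.7 and 0.611, which lies 29946 bp before the gene. The remaining siFOXA1 consensus region, chr6:129501429-129502000 inside the gene, also held a siNS 2 peak. It stood at 50.7 and 60.7 in siFOXA1 1 and 2 and at 83.0 in siNS 2. LAMA1, an alpha chain of embryonic laminin, had 1 siNS consensus region, inside the gene at chr18:7003326-7003857. It was present in all 4 libraries, at 66.3 and 67.3 in siFOXA1 1 and 2, against 34.7 and 86.5 in siNS 1 and 2. LAMA3, the alpha chain of the laminin that anchors epithelia, had 1 siNS-only region, at a start inside its longest span.

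LAMB3, the beta chain of that anchoring laminin, was the gene with the most regions present in all 4 libraries. It had 3 and 4 peaks in siFOXA1 1 and 2, against 5 and 4 in siNS 1 and 2. Of its 4 siNS consensus regions 3 were in all 4 libraries. The strongest lay 503 bp outside the span, just before the start, at chr1:209652928-209653592, and stood at 91.4 and 80.2 in siFOXA1 1 and 2, against 97.0 and 98.5 in siNS 1 and 2. The region at chr1:209620448-209621983 inside the gene stood at 81.6 and 86.4 in siFOXA1 1 and 2, against 56.5 and 83.5 in siNS 1 and 2, and chr1:209629507-209630038 at 71.4 and 36.6 in siFOXA1 1 and 2, against 73.3 and 64.2 in siNS 1 and 2. The remaining region, at another of its starts, was siNS-only. LAMB2, the beta chain of neuromuscular and glomerular basement membranes, had 2 siNS-only regions, at its start and at its other end, which it shares with USP19.

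LAMC1, the gamma chain of most laminins, had the most siFOXA1 consensus regions of the 36 genes, 4, more than at 98.8% of protein-coding genes. It had 4 and 4 peaks in siFOXA1 1 and 2, against 2 and 3 in siNS 1 and 2. The siFOXA1-only regions were both inside the gene, chr1:183060379-183060912 at 30.3 and 66.9, and chr1:183088865-183089353 at 63.8 and 36.4. Also inside the gene, chr1:183051606-183051962 had both siFOXA1 peaks, at 71.4 and 49.3, and the siNS 2 peak, at 61.4. A region in all 4 libraries lay 14312 bp outside the span at chr1:183159904-183160783, at 82.6 and 56.4 in siFOXA1 1 and 2, against 95.2 and 93.7 in siNS 1 and 2. The start region of LAMC1 was siNS-only, at 89.1 and 75.1. LAMC3 had 2 siNS-only regions and no siFOXA1 peak.

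**Figure D4:**
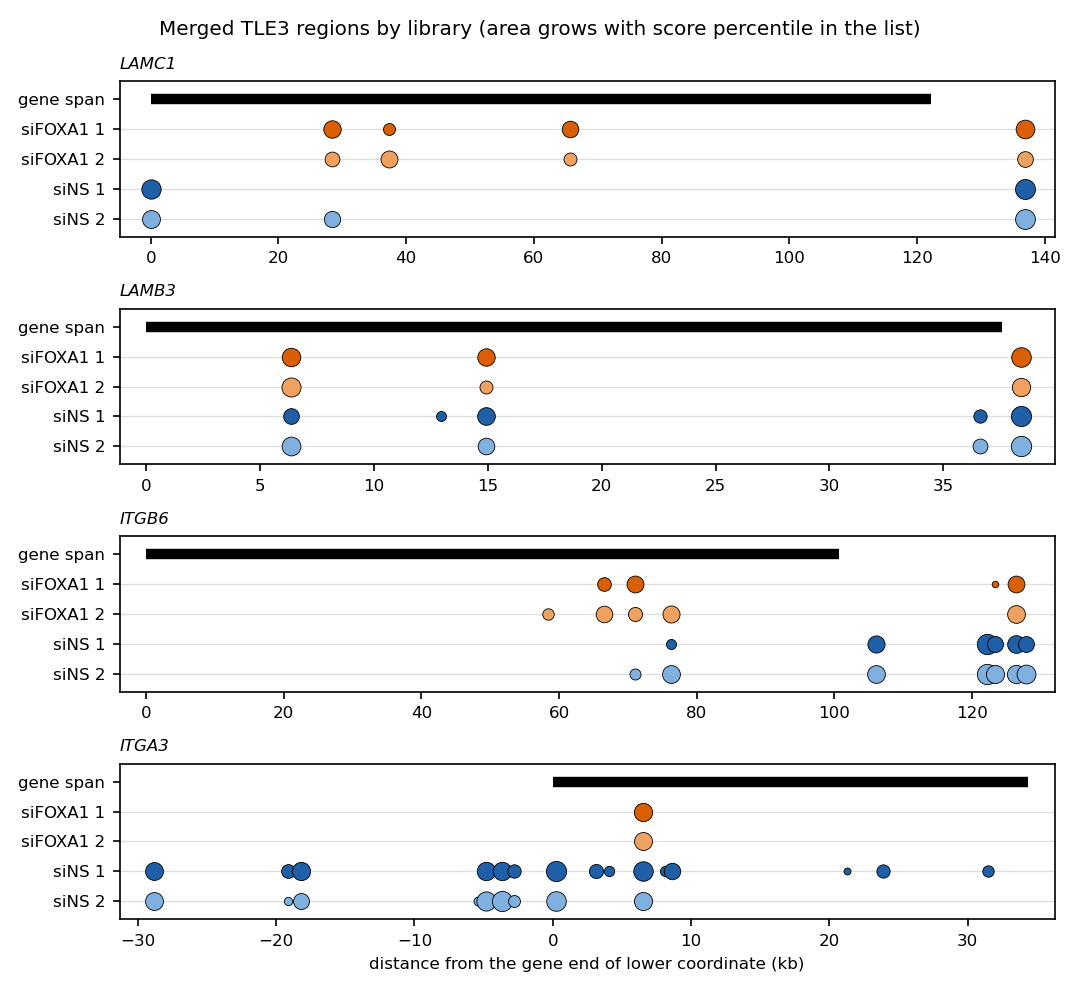
Maps of LAMC1, LAMB3, ITGB6 and ITGA3, each on its own scale in kb from the gene end of lower coordinate. The bar is the gene span, each row is a library (siFOXA1 1 and 2 above siNS 1 and 2) and each point is the centre of a merged region with a peak of that library, its area growing with the score percentile. LAMC1 shows 4 regions in both siFOXA1 libraries, and ITGA3 shows 1 beside 8 in both siNS libraries.

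The collagen IV genes lie head to head in 3 pairs, with start sites close together and pointing away from each other. COL4A1 and COL4A2, which encode the widespread form of collagen IV, are 126 bp apart, and no region lay within 1 kb of the gap. COL4A1 had 1 siNS-only region 10232 bp outside, and COL4A2 had 1 inside with both siNS peaks and the siFOXA1 2 peak. COL4A3 and COL4A4, chains of the kidney glomerular basement membrane, are 135 bp apart and shared 1 siNS-only region over their starts, at 82.7 in siNS 1 and 17.7 in siNS 2. Both had regions in all 4 libraries inside the genes. At COL4A3 these were chr2:227228070-227228703, at 82.6 and 60.7 in siFOXA1 1 and 2, against 79.2 and 89.7 in siNS 1 and 2, and chr2:227267747-227268645, at 42.6 and 68.2 in siFOXA1 1 and 2, against 58.1 and 90.0 in siNS 1 and 2. At COL4A4 it was chr2:226995486-226996240, which is also inside RHBDD1, at 72.8 and 76.7 in siFOXA1 1 and 2, against 98.5 and 97.0 in siNS 1 and 2. COL4A6 and COL4A5 are 379 bp apart with no region within 1 kb of the gap. COL4A6 had a siFOXA1-only region inside the gene at chrX:108399431-108399808, at 72.5 and 39.6, and no siNS consensus region, although siNS 1 and 2 had 2 and 4 peaks at other places there.

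**Figure D5:**
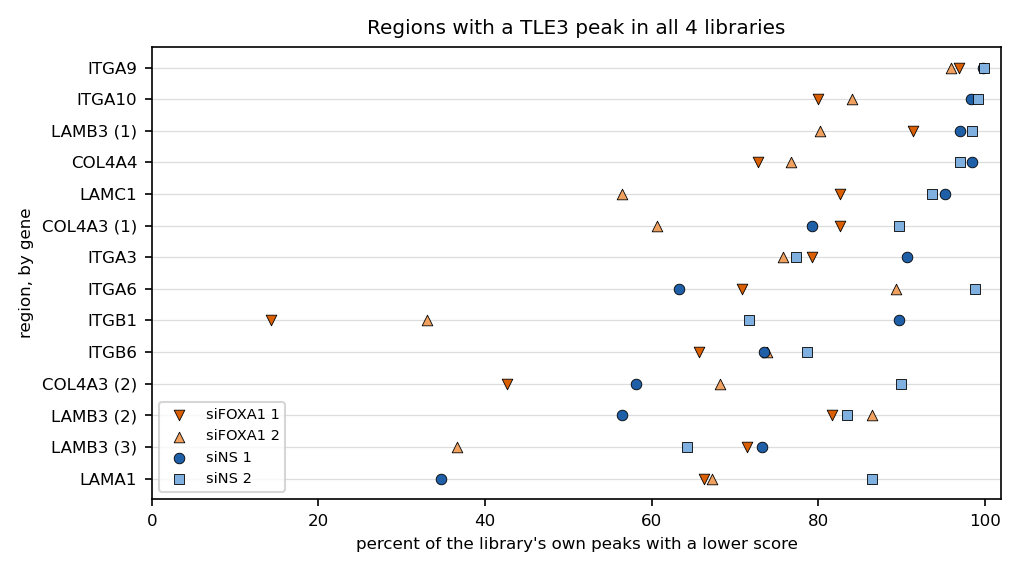
The 14 regions at integrin, laminin and collagen IV genes with a peak in all 4 libraries. The horizontal axis gives the percent of the library's own peaks with a lower score, triangles are siFOXA1 libraries and circles and squares siNS libraries. ITGA9 lies at 96.0 or above in all 4, whereas the ITGB1 region lies at 14.3 and 33.1 in siFOXA1 and at 89.7 and 71.7 in siNS. The siFOXA1 lists are shorter, so percentiles of siFOXA1 and siNS are not on the same scale.

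The 14 regions in all 4 libraries had a median mean percentile of 73.2 in the siFOXA1 lists, against 82.5 in the siNS lists. These are ranks within lists of unlike length, so the medians do not measure a change in strength. Over all 2602 such regions the medians were 68.0 in the siFOXA1 lists and 87.9 in the siNS lists. The 7 siFOXA1-only regions had a median of 48.6 in the siFOXA1 lists (range 4.01 to 56.1), beside 56.7 over all 3282 of that class. Near a gene end were 0 of the 7, beside 1.10% of all of that class. Of the 24 siFOXA1 consensus regions 14 held a siNS 1 peak (58.3%) and 17 a siNS 2 peak (70.8%), beside 32.7% and 59.0% over all 8205.

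Near start sites siFOXA1 consensus regions were rare. Of the 28 genes with a given start 14 had a siNS consensus region within 1 kb of it (50%), beside 57.9% of 15843 protein-coding genes with a given start. They were ITGA2, ITGA5, ITGA6, ITGAV, ITGB1, ITGB5, ITGB8, LAMA3, LAMA5, LAMB2, LAMB3, LAMC1, COL4A3 and COL4A4. LAMB3 was the only gene of the 28 with a siFOXA1 consensus region within 1 kb of a given start, beside 1.77% of all genes with a given start. The other 8 genes, with no given start here, were ITGA3, ITGA7, ITGA9, ITGB2, ITGB3, ITGB4, LAMA1 and LAMC3, and 6 of them had a siNS consensus region within 1 kb of either end. The share of all genes for either end is not given here, so this count cannot be set beside the shares for a given start.

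A list of 42 other genes of the basement membrane and of focal adhesions, the structures that tie integrins to actin, was set beside these. A siFOXA1 consensus region was present at 42.9% of the 42 and a siNS one at 85.7%, beside 19.7% and 66.6% of all protein-coding genes. Of their 141 siNS consensus regions 27 held a siFOXA1 peak (19.1%). This was close to the 17.0% over all siNS consensus regions, and the share was 30.4% at the integrin, laminin and collagen IV genes. The difference between the lists was not tested, and both were chosen with earlier results in view.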

How the data were processed

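TLE3 ChIP-seq peak lists of 4 libraries, 2 siFOXA1 and 2 siNS, were used, with groups and replicate numbers from the sample titles. The authors deposited 1 list per library with 5 columns, chromosome, start, end, name and a score per peak whose definition is not stated, so scores were only ranked within a list. The submitters' processing notes name hg38 as the build and list Trim Galore, MACS2, SAMtools and BWA 0.7.5a. Their settings and any role of the inputs were not given in the sources used here. No list holds reads, so depth is unknown and no count test was possible.

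Mitochondrial peaks (4 and 9 in siFOXA1, 4 and 3 in siNS) were left out. Peaks sharing at least 1 bp were merged (Python 3.11.15, numpy 2.4.6), giving 72272 regions, the number that bedtools 2.31.1 gave. Class recovery and gene assignment were tested on simulated data and by direct search. Gene spans and start windows came from RefSeq on GRCh38.p14; strand and starts came from the windows alone, and the 50 bases after a start were not used. Values per library went into a two-sided exact permutation test, and shares were given with exact Clopper-Pearson 95% intervals (scipy 1.17.1). Positions are 1-based.

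The genes, the list of 42 other genes and the tests were chosen with earlier results of these data known. Named with positions were the 10 strongest siNS and 5 strongest siFOXA1 consensus regions, and all regions present in all 4 libraries or in both siFOXA1 libraries without a siNS peak. Start windows were printed for the 6 genes with the strongest region on the window. The alternatives were other score limits, overlaps, widths, list lengths and distances, leaving out each library, and a replicate block.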

Additional observations from a re-analysis of the deposited data

How the results depend on the processing

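Of 57 recomputed values, 51 kept their direction and stayed within the limits set for a move (1.5 times for a count of genes, the 95% interval for a share, direction and side of the threshold for the tested difference). Those limits allow sizeable shifts, such as -41.0 in place of -87.0 peaks with peaks under the median score left out. Without siFOXA1 1 any siFOXA1 2 peak counted, and 20 genes in place of 14 had such a region (27.3% in place of 19.7% over all genes). Without siNS 1 every siNS 2 region counted, and 20.5% in place of 30.4% held a siFOXA1 peak (17.3% in place of 17.0% over all). Both leave-out values thus follow a looser definition. Several of the 51 could hardly move, because siNS consensus counts depend little on the siFOXA1 lists, and siFOXA1 consensus counts on the siNS lists. The tested difference could not cross its threshold, as the smallest p of the exact permutation test is 0.33. With lists of equal length the difference in peaks per library was 1.50 (siFOXA1 minus siNS, exact permutation p = 1.00), reversed from -87.0, 17 genes in place of 28 had a siNS consensus region, and 44.4% of siNS consensus regions at these genes held a siFOXA1 peak; fewer siNS peaks enter by construction. Leaving out 1 library at a time gave 17.2% (without siNS 2) to 26.1% for that share, and 17.4% (without siNS 1) to 29.0% for the share near a gene end, which was 42.0% within 5 kb of an end. Leaving out a library gave differences of -92.0 to -82.0 peaks. With the replicate block, which takes differences within replicate number, the difference was -87.0 peaks, and its p of 0.5, from an exact permutation test, is the smallest that 2 pairs allow; whether the numbers pair the libraries cannot be read from 2 pairs. Apart from list length and leaving out a siNS library, the share with a siFOXA1 peak ran from 20.3% (both siFOXA1 libraries needed) to 32.7% (gene spans only). Peak lists of unknown depth limit all of these values: a region with no listed peak is not shown to be unbound.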
